A study of Homo sapiens with 4 samples.

Results

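The 6 human DLX genes form 3 pairs, DLX1 and DLX2 on chromosome 2, DLX5 and DLX6 on chromosome 7 and DLX3 and DLX4 on chromosome 17, and the positions of the chromatin remodeller CHD5 and of the histone mark H3K27me3 were examined at each pair. The members were the rows of the CHD5 and H3K27me3 region lists within 50 kb of the span of a pair in the hg19 build, which gave 3 windows of 119.0, 120.0 and 127.0 kb. They held 15 of the 32543 CHD5 peaks and 65 of the 257073 H3K27me3 regions. The lists come from SH-SY5Y, a human neuroblastoma cell line, of which every library had been exposed to 10 uM retinoic acid for 8 days. The CHD5 library is a streptavidin pull-down from cells expressing FBio-CHD5, a form of the protein introduced into the line, and the H3K27me3 library is an antibody precipitation from the same kind of cells. A pull-down from Fbio-Ctrl expressing cells and an input library belong to the series, and no region list of theirs was used here. The labels name no cells without retinoic acid. Each of the 4 groups has 1 library, so there is no replicate error and no test between groups. The lists hold regions and scores without read counts, so depth is unknown and the identity of the line could not be checked against expressed markers.

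DLX genes encode homeodomain transcription factors related to Distal-less of the fruit fly. The genes of a pair are transcribed towards each other, so that each begins at or near an outer end of the pair span, and conserved enhancers lie between them. The ends of a span are called here by the gene that lies there, for example the DLX1 end. Each pair sits on the same chromosome as a HOX cluster. DLX1, DLX2, DLX5 and DLX6 act in the forebrain, where they drive the formation of GABAergic interneurons, and in the branchial arches. DLX5 and DLX6 also act in limb and bone, DLX3 in hair, teeth and bone, and DLX4 is known from the placenta. H3K27me3 is written by Polycomb repressive complex 2 and in many cell types covers developmental transcription factor genes that are silent there. CHD5 is a chromodomain helicase found in neurons and is lost in many neuroblastomas.

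The 3 pairs carried different combinations of the mark and the remodeller. At DLX1 and DLX2 a row of closely spaced H3K27me3 regions covered 75.5% of the span and reached past both of its ends, and a single narrow CHD5 peak met it. At DLX5 and DLX6 the span held no H3K27me3 region and 3 CHD5 peaks. DLX3 and DLX4 carried both, in separate marked blocks at the 2 ends of the span, and 5 of the 9 CHD5 peaks there lay inside the mark, against 2.19% of all CHD5 peaks.

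Promoter sequences are shown first, so that the base composition at starts of a marked and of an unmarked pair can be read beside the mark. RefSeq promoters were found for 3 of the 6 genes, DLX1, DLX2 and DLX6, and for DLX6-AS1, a long noncoding RNA that begins between DLX6 and DLX5 and is also known as Evf-2. Each line gives the 250 bases before the start, 5′ to 3′, from GRCh38.p14, with CpG dinucleotides in capitals. These coordinates belong to another build than the region lists and cannot be set against them.
DLX1 (chr2:172085257-172085506, + strand): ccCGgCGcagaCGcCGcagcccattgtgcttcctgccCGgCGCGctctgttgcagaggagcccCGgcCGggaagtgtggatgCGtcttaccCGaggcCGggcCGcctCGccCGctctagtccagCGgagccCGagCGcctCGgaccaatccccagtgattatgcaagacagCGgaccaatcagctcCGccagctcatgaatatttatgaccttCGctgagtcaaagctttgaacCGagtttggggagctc
DLX2 (chr2:172102901-172103150, - strand): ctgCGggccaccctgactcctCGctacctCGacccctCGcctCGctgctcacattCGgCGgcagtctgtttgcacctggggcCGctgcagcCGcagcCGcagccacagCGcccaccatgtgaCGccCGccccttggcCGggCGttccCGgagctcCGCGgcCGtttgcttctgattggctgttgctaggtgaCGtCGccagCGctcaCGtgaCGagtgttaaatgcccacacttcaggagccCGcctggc
DLX6 (chr7:97005303-97005552, + strand): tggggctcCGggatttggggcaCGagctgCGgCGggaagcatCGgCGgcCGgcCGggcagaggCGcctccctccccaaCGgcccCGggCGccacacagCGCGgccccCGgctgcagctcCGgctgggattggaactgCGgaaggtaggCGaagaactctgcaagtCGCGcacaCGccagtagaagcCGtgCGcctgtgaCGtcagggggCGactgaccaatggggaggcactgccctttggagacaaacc
DLX6-AS1 (chr7:97014066-97014315, - strand): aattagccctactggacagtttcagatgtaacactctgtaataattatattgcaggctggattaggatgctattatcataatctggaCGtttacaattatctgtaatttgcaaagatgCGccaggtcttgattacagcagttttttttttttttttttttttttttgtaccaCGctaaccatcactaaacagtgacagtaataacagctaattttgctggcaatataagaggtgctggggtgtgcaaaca

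The 3 coding promoters were alike in base composition. DLX1 had 23 CpG dinucleotides, DLX2 had 25 and DLX6 had 25, where the median of 35114 promoters of this length was 11. Their GC content was 63.6%, 68.0% and 70.0%, against a median of 58.0%. As many CpG as in DLX1 were found in 25.8% of all promoters, and as many as in DLX2 or DLX6 in 21.6%. DLX6-AS1 was unlike them, with 3 CpG and a GC content of 35.2%. The DLX1 and DLX2 promoters belong to a marked pair and that of DLX6 to the pair without a region in its span, and 3 promoters allow no comparison between pairs. The letters CCAAT, searched on both strands after the sequences had been seen, occurred at 2 places in DLX1, at 1 in DLX2 and at 2 in DLX6, and in 32.0% of all promoters. TAATT, a core of many homeodomain motifs, occurred in none of the 3 coding promoters and at 6 places in DLX6-AS1, overlapping matches counted apart, and in 23.1% of all promoters. Such matches are letters and not binding sites.

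Over the whole window, H3K27me3 covered 18.6 kb or 15.6% at DLX1 and DLX2, 17.9 kb or 14.1% at DLX3 and DLX4, and 0.117 kb or 0.0975% at DLX5 and DLX6. For comparison, the autosomes were divided into consecutive windows of the same length as each of these. Cover at or above that of DLX1 and DLX2 was found in 6.24% of such windows, and cover at or above that of DLX3 and DLX4 in 7.00%. The single region at DLX5 and DLX6 is little, and 37.3% of windows had as much or more. The mean window had 2.86% of its bases in the mark and the median window had none.

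Within the spans alone the difference between the pairs was wider. DLX1 and DLX2 had 75.5% of their 19 kb inside H3K27me3, a level that 0.325% of consecutive stretches of that length reached. DLX3 and DLX4 had 23.1% of 27 kb, a level reached by 4.21%. DLX5 and DLX6 had 0% of 20 kb, as did 80.4% of stretches of that length.

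**Figure D1:**
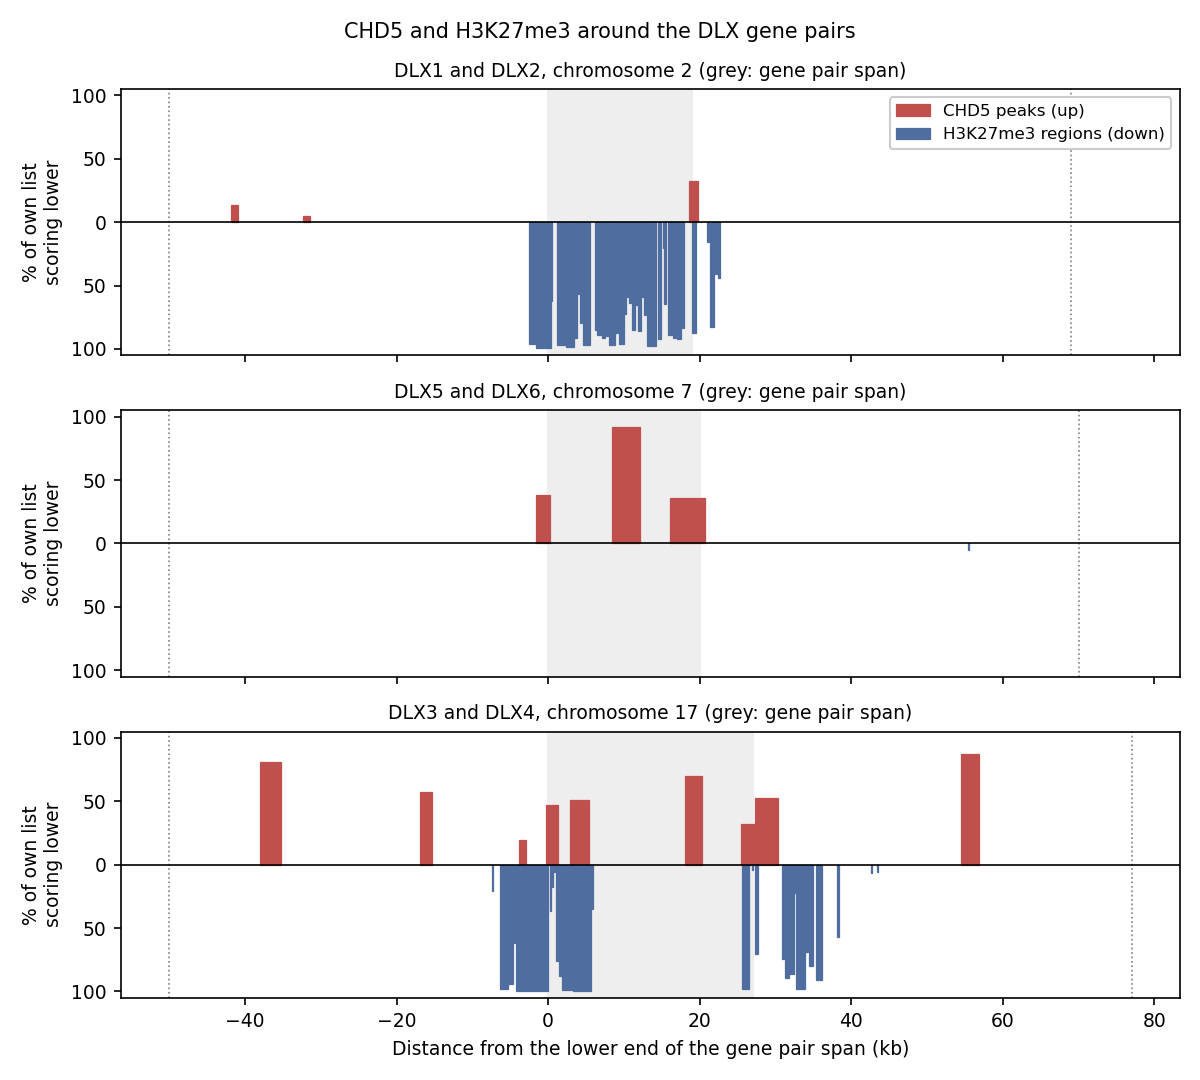
Map of the 3 windows. The horizontal axis is the distance in kb from the lower end of the gene pair span (grey), dotted lines mark the limits of 50 kb, red bars upward are CHD5 peaks and blue bars downward are H3K27me3 regions, and bar height is the share of the bar's own list that scores lower. The mark covers 75.5% of the DLX1 and DLX2 span, has no region in the DLX5 and DLX6 span, and stands at both ends of the DLX3 and DLX4 span.

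At DLX1 and DLX2 all 37 H3K27me3 regions lay within 3 kb of a neighbour and joined into 1 domain on chromosome 2 from 172946535 to 172971669. It was 25.1 kb wide, wider than 96.1% of the 38537 domains of the genome joined in this way. It began 2.46 kb below the span, ended 3.67 kb above it, and 74.0% of its bases were inside regions. Its limits lay close to those of the gene pair. Beyond it the surroundings were nearly bare: no H3K27me3 lay between 10 and 50 kb from the span, and the next domain of at least 5 kb was 1270 kb away on the lower side and 2220 kb away on the upper side.

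Regions of this domain ranked high in their list. The highest score, 1314.41, belonged to the region from 172947360 to 172949309, which covers the DLX1 end. It was followed by 747.79 for the region from 172951298 to 172952437 and 699.52 for that from 172962026 to 172963229, both within the span. Scores exceeded the median of the whole list in 33 of the 37 regions. The median score in the window was 214.03, against 81.455 for chromosome 2. Scores are the authors' peak caller's own, without a stated scale, and are used only within a list.

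The DLX1 and DLX2 domain had its largest gaps near the DLX2 end. Regions were missing over 1043 bp from 172966982 to 172968024 and over 1399 bp from 172968550 to 172969948. The next gap in size was 572 bp. The only CHD5 peak of the domain, from 172967629 to 172968772, filled 396 bp of the first of these gaps, crossed the 525 bp region between them and ran 223 bp into the second. This peak was 1144 bp wide, narrower than most of its list, since only 21.2% of CHD5 peaks were narrower. Its score was 84.57, above 32.8% of the list, and 45.9% of it lay inside H3K27me3. The shared 525 bp lay just past the limit of the span, so that no base within the span was shared by both lists.

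The other 2 CHD5 peaks of this window lay in the lower flank, towards METAP1D, the coding gene next to DLX1. They were 900 and 935 bp wide with scores of 62.21 and 53.69, and were 41.0 and 31.5 kb from the span. None of the 3 peaks of the window reached the median CHD5 score of 117.12. At least 3 peaks were found in 19.7% of windows of this length, so the count itself is common. At least 1 CHD5 peak inside the mark was found in 2.39% of windows, and in 130 or 8.61% of the 1510 windows with at least as much H3K27me3. At least 1 peak touching a stretch as long as the span, whether inside the mark or not, was found in 17.7% of stretches.

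At DLX5 and DLX6 the roles of the lists were exchanged. The 3 CHD5 peaks of the window all touched the span and together covered 38.7% of it, and 1.17% of stretches of this length held as many. The peak from 96643429 to 96647098 lay in the interior, between 8.43 and 12.1 kb from the DLX6 end, with its midpoint at 51.3% of the span. It was 3670 bp wide and scored 439.08, the highest of the 15 peaks and above 92.2% of the list. In the RefSeq models of GRCh38.p14 DLX6-AS1 begins above the DLX6 start. The distance from this peak to the DLX6-AS1 start was not computed because the builds differ.

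The remaining peaks lay at the ends of the span. The peak from 96633459 to 96635201 crossed the DLX6 end, was 1743 bp wide and scored 93.51. The peak from 96651128 to 96655729 crossed the DLX5 end, was 4602 bp wide and scored 89.55. It was wider than 96.3% of the list although 36.0% of the list scored lower, so width and score went apart at this peak. The plain count of 3 peaks in the whole window was reached by 19.7% of windows of this length, the same share as at DLX1 and DLX2. What differed was their place, since all 3 touched the span here and 1 did there.

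The nearest H3K27me3 to these peaks was a single region of 117 bp from 96690377 to 96690493 with a score of 51.8, close to the lowest deposited score of 50. It lay 35.4 kb above the span, and the 3 peaks were between 34.6 and 55.2 kb from it. The mark was common farther out. It covered 7.19% of the bases between 100 and 200 kb from the span and 22.4% of those between 200 and 500 kb, and a domain of 10.4 kb began 173 kb above the span. Within 500 kb on either side there were 15 CHD5 peaks and none overlapped H3K27me3. Over the whole list 2.19% of CHD5 peaks lay inside the mark, and on chromosome 7 it was 4.70%. Within 500 kb of this span, however, 14.6% of bases were inside H3K27me3, against 2.86% in the mean autosomal window. Whether none among 15 peaks is unusual at such cover was not tested.

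DLX3 and DLX4 differed from both other pairs. The window held 9 CHD5 peaks that covered 14.7% of it, a count reached by 1.11% of windows of this length. Of these, 4 touched the span, a count reached by 0.613% of stretches as long as the span. The window also held 27 H3K27me3 regions. They formed a domain of 13.3 kb from 48038628 to 48051973 around the DLX4 end, a domain of 2.09 kb from 48071604 to 48073689 at the DLX3 end, and domains of 7.57 and 0.949 kb farther up, towards ITGA3. Between the first and the second lay 19.6 kb without the mark, which is most of the interior of the span.

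The DLX4 domain held the highest H3K27me3 score of all 3 windows. The region from 48041713 to 48045976, just below the span, was 4264 bp wide and scored 3100, a value that 334 of the 257073 regions reached. The value 3100 recurs in the list: on chromosome 2 it was the highest score and 10 regions had it. Regions that share it cannot be ranked by score. The regions from 48049251 to 48051675 and from 48047775 to 48049213 followed with 1799.84 and 1085.03. At the DLX3 end, the region from 48071604 to 48072554 scored 706.34. These 4 regions scored above 98.0% to 99.9% of the list, where the highest of the DLX1 and DLX2 domain scored above 99.4%.

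Of the 9 CHD5 peaks, 5 lay inside H3K27me3, a share of 55.6% (exact binomial 95% interval 21.2% to 86.3%, counting error only). Over the whole list the share was 2.19%, and on chromosome 17 it was 4.88%. At DLX1 and DLX2 1 of 3 peaks lay inside, 33.3% (interval 0.84% to 90.6%), against 2.21% on chromosome 2. At DLX5 and DLX6 none of 3 did, 0% (interval 0% to 70.8%), against 4.70% on chromosome 7. The intervals of the 3 pairs are wide and overlap, which is not a test of a difference. The shares of the pairs were not tested against each other, and with so few peaks no difference between them is claimed. Peaks of a window come from the same library and are neighbours, and the intervals treat them as independent. At least 5 CHD5 peaks inside the mark were found in 0.00883% of the consecutive windows of this length, which is 2 windows, and 1 of these overlaps the DLX3 and DLX4 window itself. Windows without the mark cannot hold such peaks: of the 1587 windows covered at least as much as that of DLX3 and DLX4, these 2 make up 0.126%.

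Of the 5 inside peaks, 3 lay in the DLX4 domain and 2 in the DLX3 domain, while the domains of 7.57 and 0.949 kb farther up held 0. The peak from 48042137 to 48043098 lay wholly within the 4264 bp region, with 100% of its 962 bp covered. The peak from 48045732 to 48047334 crossed the DLX4 end and was covered to 63.1%. The peak from 48048828 to 48051348, within the span, was covered to 98.5%. At the other end, the peak from 48071515 to 48073141 was covered to 69.1% and took in the whole 951 bp region that scored 706.34. The last, from 48073340 to 48076385, was covered to 11.5% and also took up 2696 bp of the 3125 bp gap between the DLX3 domain and the next. In all, 5.93 kb was shared, which is 31.7% of the CHD5 bases and 33.1% of the H3K27me3 bases of the window. CHD5 touched 10 of the 27 H3K27me3 regions there, 1 of 37 at DLX1 and DLX2 and none at DLX5 and DLX6, against 0.503% of regions over the whole list.

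Outside peaks of the DLX3 and DLX4 window scored higher than inside ones, and the classes did not overlap. Inside and outside scores were not compared over the whole list, so whether this is particular to the window is not known. The 5 inside peaks scored 68.28, 111.22, 119.33, 83.6 and 122.79 in order along the chromosome, and the 4 outside peaks scored 265.18, 137.89, 188.81 and 333.63. The outside peaks lay between 5.35 and 20.7 kb from the nearest H3K27me3 region. The peak scoring 188.81, from 48064028 to 48066256, was in the unmarked interior of the span, with its midpoint at 70.9% of the way from the DLX4 end to the DLX3 end. The order was not the same at DLX1 and DLX2, where the inside peak scored 84.57 and the outside peaks less. At DLX5 and DLX6 all peaks were outside and scored 93.51, 439.08 and 89.55. Of these, 93.51 and 89.55 fall within the range of the inside peaks of DLX3 and DLX4. Width went the same way at DLX3 and DLX4: the median outside peak measured 2303.5 bp and the median inside peak 1627 bp. The part of width in the scores was not tested.

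**Figure D2:**
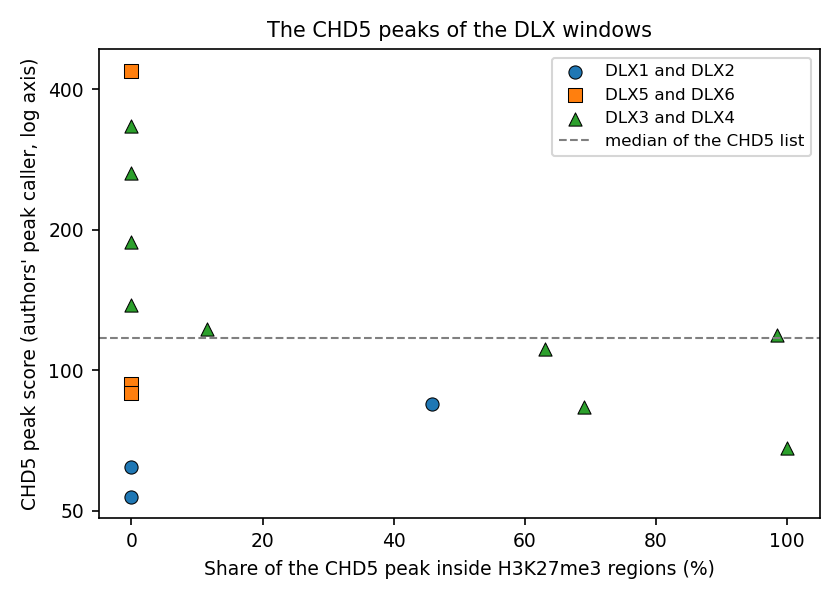
Scores of the 15 CHD5 peaks. The horizontal axis is the percentage of the peak covered by H3K27me3 regions, the vertical axis is the score given by the authors' peak caller on a log axis, symbols mark the gene pair and the dashed line is the median of the whole CHD5 list, 117.12. The highest point is the interior peak of DLX5 and DLX6 at 439.08, and no peak covered by the mark exceeds 122.79.

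The 6 ends of the spans were compared within 2 kb on either side. CHD5 was present at 5 of the 6 ends, H3K27me3 at 4 and both at 3. Of all consecutive autosomal stretches of 4 kb, 6.15% held a CHD5 peak, 11.0% an H3K27me3 region and 0.198% both. These stretches are mostly not promoters, and the levels at other gene starts were not analysed here. The ends are limits of spans given to the nearest kb and not start sites. In the RefSeq models of GRCh38.p14 the DLX1 and DLX2 starts lie closer together than their span is long, so at least 1 of them lies inside its end. With 1 or 5 kb on either side, the counts of ends with CHD5 and with both were again 5 and 3.

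DLX1 was the end without CHD5: its stretch had 84.9% of its bases inside H3K27me3, and the nearest CHD5 peak was 18.6 kb away, at the opposite end of the pair. DLX2 had 35.0% inside H3K27me3 and 28.6% inside CHD5. DLX4 had 83.2% inside H3K27me3, close to DLX1, yet 40.1% inside CHD5. DLX3 had 37.4% inside H3K27me3 and 82.2% inside CHD5. DLX5 and DLX6 had 68.2% and 43.6% inside CHD5 and no H3K27me3. Within 2 kb, then, the end with more H3K27me3 in each marked pair had less CHD5. At DLX3 and DLX4 this order depends on the distance chosen. Further CHD5 peaks of 962 and 2521 bp lie 2.9 and 2.83 kb from the DLX4 end. With 5 kb on either side that end therefore did not have less CHD5 than the DLX3 end.

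**Figure D3:**
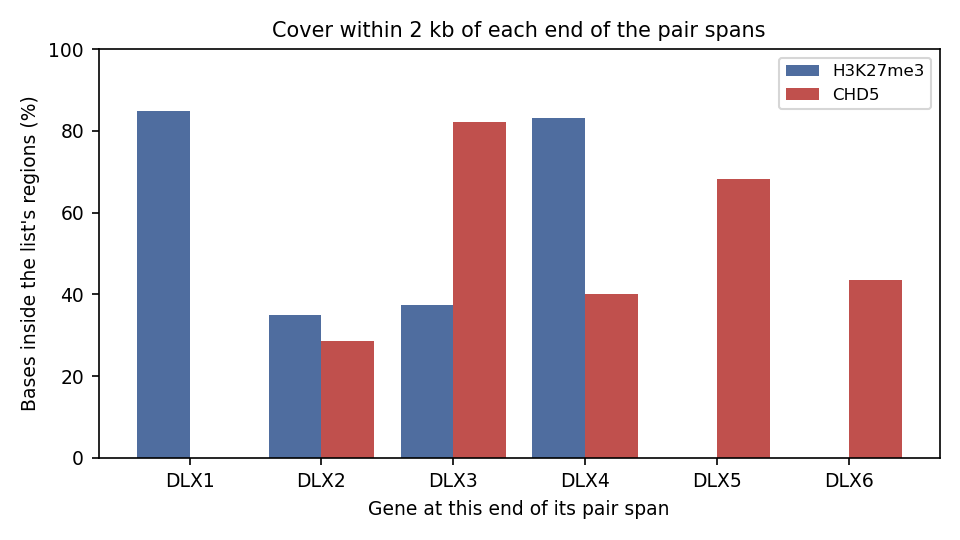
Cover within 2 kb on either side of the 6 ends of the pair spans. Each group of bars is the end at which the named gene lies, and bars give the percentage of bases inside H3K27me3 regions (blue) and CHD5 peaks (red). DLX1 has the mark alone, DLX5 and DLX6 have CHD5 alone, and DLX2, DLX3 and DLX4 have both.

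The surroundings of the pairs differed as well. Within 500 kb on either side, CHD5 peaks numbered 8 at DLX1 and DLX2, or 7.85 per Mb, 15 at DLX5 and DLX6, or 14.7 per Mb, and 48 at DLX3 and DLX4, or 46.7 per Mb. The many CHD5 peaks at DLX3 and DLX4 therefore stood in a stretch rich in CHD5: cover by CHD5 was 28.0% in the span, 15.4% between 50 and 100 kb away and 12.5% between 100 and 200 kb away. At DLX5 and DLX6 it was 38.7% in the span and 0% between 10 and 50 kb. H3K27me3 at DLX3 and DLX4 lay mostly at the pair and in its near flanks, with 55.7% cover within 10 kb of the span, 2.76% between 10 and 20 kb and 0% between 20 and 50 kb. Upward, the next H3K27me3 region was 472 kb from the span. Of the 48 CHD5 peaks around DLX3 and DLX4, 8 lay inside H3K27me3, 5 of them in the window. By distance, 1 of 7 peaks lay inside between 50 and 100 kb, 0 of 12 between 100 and 200 kb and 2 of 21 between 200 and 500 kb. On chromosome 17 as a whole the share was 4.88%.

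**Figure D4:**
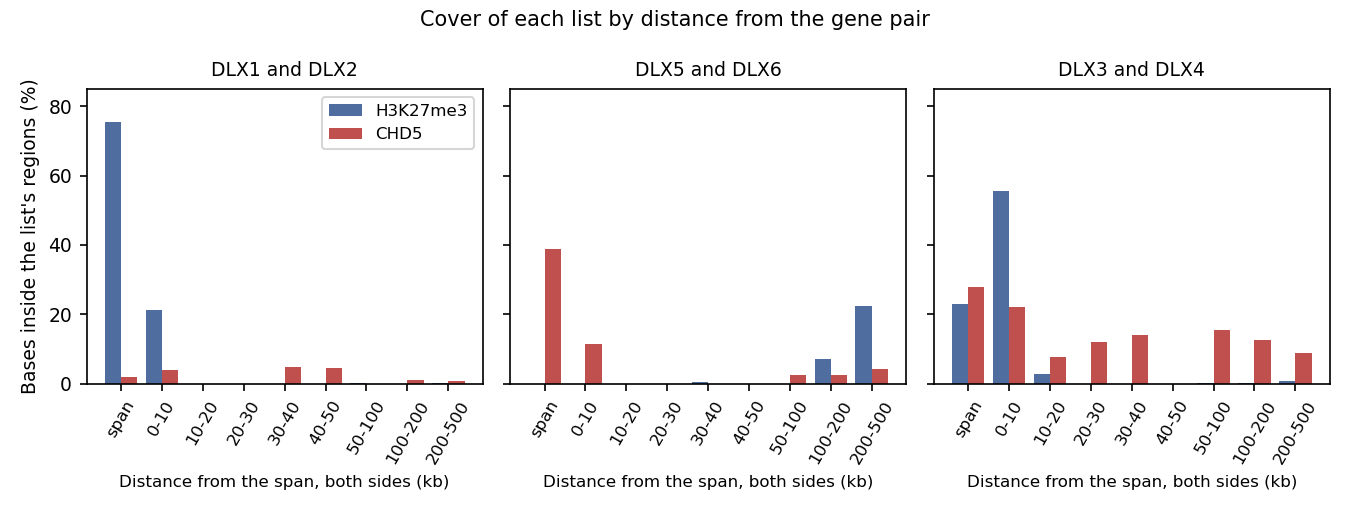
Cover by distance. Bars give the percentage of bases inside H3K27me3 regions (blue) and CHD5 peaks (red) for the span of each gene pair and for distance classes in kb on both sides together. H3K27me3 reaches 75.5% in the DLX1 and DLX2 span and 22.4% only beyond 200 kb at DLX5 and DLX6, while CHD5 at DLX3 and DLX4 stays between 7.66% and 28.0% in every class except that from 40 to 50 kb, where it is 0%.

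Region widths also differ between these chromosomes. The median CHD5 peak was 1760 bp wide on chromosome 2, 2536 bp on chromosome 7 and 1910 bp on chromosome 17, and the medians in the 3 windows were 935, 3670 and 2229 bp. For H3K27me3 the chromosome medians were 239, 351 and 262 bp. The windows thus followed the order of their chromosomes for CHD5 width, and the part of the chromosome in the difference between pairs was not tested. For H3K27me3 the medians in the windows were 383, 117 and 362 bp, and the 117 bp is the width of 1 region. The order there went the other way: chromosome 7 had the widest regions of the 3 and its DLX window the narrowest median. That window also had the least cover.

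The limit of 50 kb decided part of the counts. At DLX1 and DLX2 a limit of 20 kb leaves 1 of the 3 CHD5 peaks and none outside the mark, since the others lay 31.5 and 41.0 kb from the span. The next peak beyond 50 kb was 131 kb away, with a score of 92.72. All 3 peaks of DLX5 and DLX6 touched the span. The next peaks there were 67.7 and 106 kb away, with scores of 144.0 and 67.61. At DLX3 and DLX4 peaks followed soon after the limit, at 56.1 kb with a score of 283.76 and at 57.3 kb with 61.0. The latter met an H3K27me3 region of 222 bp that scored 97.46.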

How the data were processed

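The 4 chromatin immunoprecipitation libraries of retinoic acid treated SH-SY5Y cells were grouped by sample title. The authors deposited a region list for CHD5 and another for H3K27me3, made with MACS per the file headers, and gave each region a score on no stated scale whose lowest value is 50. The submitters' processing notes name the hg19 build. The sources used here do not give the aligner, the MACS version or threshold, or the background library, which decides how far a list also holds places that shear or capture well. H3K27me3 is listed as many short regions, with a median width of 238 bp against 1647 bp for CHD5. The reason for this difference was not tested.

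Inside the mark meant at least 1 bp shared with an H3K27me3 region, and bedtools 2.31.1 gave the same 712 peaks for the whole list. Domains join H3K27me3 regions separated by up to 3 kb. Consecutive windows of equal length run along the 22 autosomes, assembly gaps and the DLX loci included, and are a description only. Overlap, cover, joining and distance routines were tested on simulated data. RefSeq promoters and gene order are from GRCh38.p14, and no coordinates were converted. Python 3.11.15, numpy 2.4.6, scipy 1.17.1 and matplotlib 3.10.9 were used.

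Named positions followed a rule: every CHD5 peak where a window held at most 12, and per window the widest domain, the 3 highest-scoring regions and the nearest rows beyond. Other domains, gaps, span ends, motifs and the surroundings to 500 kb were added after values were seen. The members and lists were chosen with earlier results of these data known.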

Additional observations from a re-analysis of the deposited data

How the results depend on the processing

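With 1 library per group there is no spread between replicates, and no library could be left out. No paired analysis was possible because each group has 1 library. Counts that moved by more than 1.5 times are given, and nearly every change in cover, since a binomial interval over bases treats neighbouring bases as independent and is too narrow to judge stability. Cover by H3K27me3 at DLX1 and DLX2 was 75.5% in the span alone, 31.5% with 20 kb on either side, 8.56% with 100 kb, 14.9% for H3K27me3 regions scoring at or above the median of their list, and 21.1% with regions joined into domains. At DLX3 and DLX4 the same settings gave 23.1%, 26.7%, 7.99%, 13.0% and 18.9%. At DLX5 and DLX6 they gave 0%, 0%, 0.0532% and 0%, with joining without effect. DLX1 and DLX2 had the highest and DLX5 and DLX6 the lowest cover under each of these 5 settings. CHD5 peaks of the DLX1 and DLX2 window numbered 1 in the span and 1 within 20 kb, with 0 outside the mark in both cases. At a CHD5 score at or above the list median 0 were left, 0 inside and 0 outside, and 0 were inside where at least 50% of the peak had to be covered. At DLX5 and DLX6 that score limit left 1 peak, which was outside the mark (1 of 1). At DLX3 and DLX4 the span held 4 peaks, 3 inside and 1 outside. There 2 were outside within 20 kb, and 16 peaks lay within 100 kb, 6 inside the mark and 10 outside. The CHD5 score limit left 6 peaks, 2 inside and 4 outside. The inside peaks, 5 of 9 in the main setting, were thus the minority with 100 kb and with the score limit. The number of span ends with CHD5, 5, and with both, 3, was the same at 1 and 5 kb, settings chosen after seeing the data. All alternatives use the same lists, so they do not stand in for replicates.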
